A study of Mus musculus with 8 samples.

Results

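*Sox5*, *Cebpb* and *Epas1* were the transcription factors of chondrocyte biology described here, 3 of the 67 target mRNAs measured in knee joints of 8 inbred mouse strains. They were taken by name from both probe panels, and all 3 had a value in every assay replicate of their panel. *Sox5* encodes an HMG-box factor that works beside *Sox9* to switch on the genes of cartilage matrix, such as *Col2a1* and *Acan*. *Cebpb* encodes C/EBP beta, a leucine zipper factor that responds to inflammatory cytokines and is known to act on matrix genes and on *Mmp13* in chondrocytes. *Epas1* encodes HIF-2 alpha, the oxygen-regulated factor that in cartilage is known for its part in chondrocyte hypertrophy and in the expression of matrix-degrading enzymes.

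The tissue was formalin-fixed, paraffin-embedded knee joint from mice that had a full-thickness injury of the articular cartilage at 8 weeks of age. By the study's methods, the joints were harvested months after this injury. The healer strains were LG/J, MRL/MpJ and LGXSM-6, the intermediate healers LGXSM-5 and LGXSM-35, and the non-healers SM/J, C57BL6/J and LGXSM-33. The 4 LGXSM strains are recombinant inbred lines from a cross of LG/J with SM/J. All strains had the same injury, so no uninjured joint enters any comparison. Sections of several mice per strain were macrodissected as a composite of cartilage, subchondral bone, meniscus, growth plate, capsule and synovium. In such a homogenate, fewer cells of a type and less RNA per cell cannot be told apart. The QuantiGene Plex assay captures each mRNA from the homogenate on coded beads and reports it as a fluorescent signal through branched DNA, without amplification of the RNA.

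*Cebpb* and *Epas1* were in the first panel, with 76 assay replicates, and *Sox5* in the second, with 78. A strain had 8, 9 or 12 of these numbered readings in a panel. The study's methods describe repeated readings of a few mice per strain, so the readings of a strain are not as many animals, and the files do not say which readings are repeats of 1 mouse. P values over readings cover the spread between readings, which is partly technical, and are smaller than P values over mice would be wherever repeats of a mouse are alike. *Sox5* gave low signals, between 7 and 37.5 around a median of 16, and 6.41% of its readings were under 10, against 18.4% of all readings in the second panel. All of those under 10 were in SM/J (9, 9, 8 and 7) and C57BL6/J (9), the strains with its lowest normalized means. By mean log signal it ranked 17 from the lowest of 67 mRNAs. Signals ranged from 24.5 to 401 for *Cebpb* and from 89 to 2014 for *Epas1*. Each mRNA has its own probes, so the signal of one factor was not set against that of another. The methods set a fixed number of bead events to be read per target, but the number behind each value is not in the files, so no counting error of a reading was computed. The cartilage markers *Col2a1*, *Acan*, *Comp* and *Mia1* were present in every strain, with geometric mean signals that summed to between 3145 in SM/J and 13276 in LGXSM-6. The bone markers *Bglap1* and *Col1a1* summed to between 15550 and 32619.

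The signal of each factor followed that of the reference genes *Gapdh* and *Hprt1*, but not to the same degree. On log scales *Epas1* rose by 0.933 for each unit of the mean reference signal (Pearson r = 0.97 over 76 readings), *Cebpb* by 0.788 (r = 0.81) and *Sox5* by 0.394 (r = 0.71 over 78 readings). The median slope was 0.705 in the first panel and 0.656 in the second. *Hprt1* itself ranged from 13 to 722.5 in the first panel and from 10 to 537 in the second. The normalized value of a target is what remains after regression on the references, here in log2 units. Signal and normalized value could run in opposite ways. In SM/J the 3 dimmest *Epas1* readings, with signals of 89, 90 and 111, had normalized values of 0.26, 0.07 and 0.31, and its brightest reading, with a signal of 661, had -0.13.

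**Figure D1:**
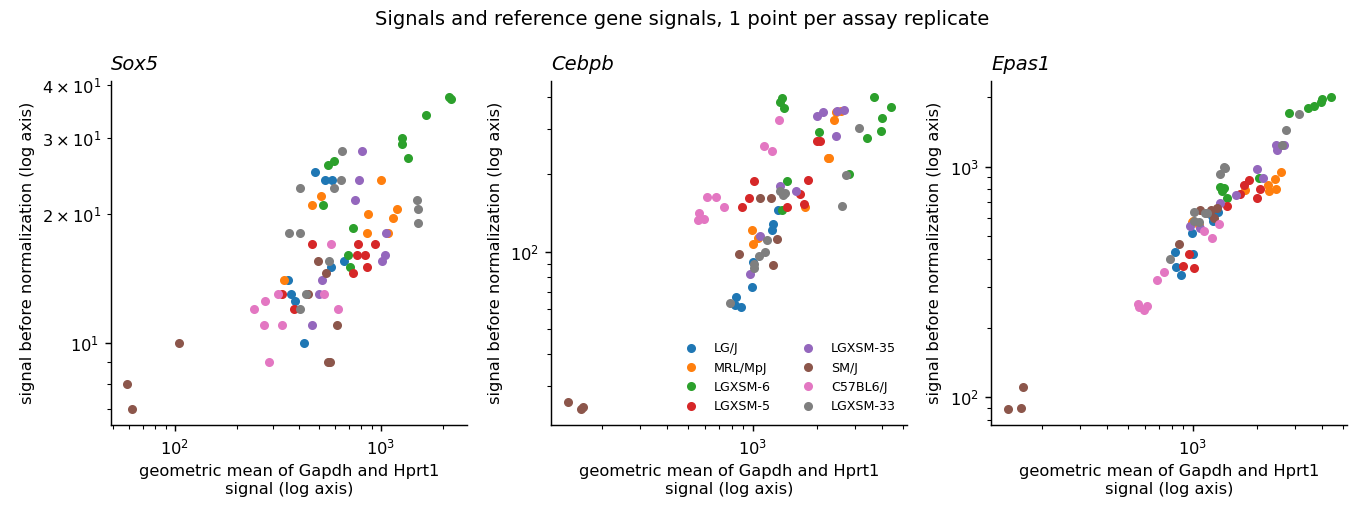
Signal before normalization of each factor (y axis, log scale, arbitrary units) against the geometric mean of the *Gapdh* and *Hprt1* signals (x axis, log scale), with 1 point per assay replicate coloured by strain. *Epas1* lies close to a line with a slope of 0.933, *Cebpb* is more scattered, and *Sox5* is the flattest, with a slope of 0.394.

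The question of the strain comparison is whether the expression of a factor differs with genotype. With readings as units, each factor differed among the 8 strains by more than the spread between readings (limma moderated F-test, Benjamini-Hochberg adjustment over 67 mRNAs), but with runs of 3 readings as units no factor did. Over readings the adjusted P was 4.91e-06 for *Epas1*, 0.00078 for *Cebpb* and 0.00194 for *Sox5*. Such a call was common in these data, with 55 of 67 mRNAs (82.1%) called. With readings as units, broad-sense heritability (H2), the share of variance lying between strains, was 41.8% for *Epas1*, 25.8% for *Cebpb* and 21.7% for *Sox5*. Its jackknife SE over strains was 16.6, 23.8 and 9.75 percentage points. Wherever repeats of a mouse are alike, part of the spread between mice counts here as spread between strains. These values are therefore not heritabilities over mice. Over all 67 mRNAs the median H2 was 29.6%, and the factors took ranks 20, 39 and 45. The widest strain difference was 0.99 on the log2 scale for *Cebpb* (1.99-fold), 0.51 for *Sox5* (1.42-fold) and 0.43 for *Epas1* (1.35-fold). The median of the widest difference over all mRNAs was 0.54.

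These calls rest on counting repeated readings as units. In the strains with 9 or 12 readings, those with consecutive numbers, 1 to 3, 4 to 6 and so on, were alike. There the share of within-strain variance lying between such runs of 3 was 83.4% for *Sox5* (26 runs), 77.1% for *Cebpb* (20 runs) and 60.1% for *Epas1* (20 runs). When the mean of a run was the unit, 13 of 67 mRNAs (19.4%) were called and no factor was among them, with adjusted P = 0.119 for *Epas1*, 0.390 for *Cebpb* and 0.411 for *Sox5*. None of the strain pairs below was called for any factor on that basis, where 70 of 1876 tests (3.73%) over all mRNAs were. LG/J and SM/J, with 8 readings each in the first panel, were cut there at the same numbers. In SM/J this cut parted like readings, since *Epas1* signals in readings 1 to 5 were 601.5, 661, 111, 90 and 89. Without these strains in the first panel, the limma adjusted P was 0.156 for *Epas1* and 0.741 for *Cebpb*. The adjusted P values that follow treat readings as units unless runs or strain means are named, and describe differences beyond the spread of readings, not of mice.

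**Figure D2:**
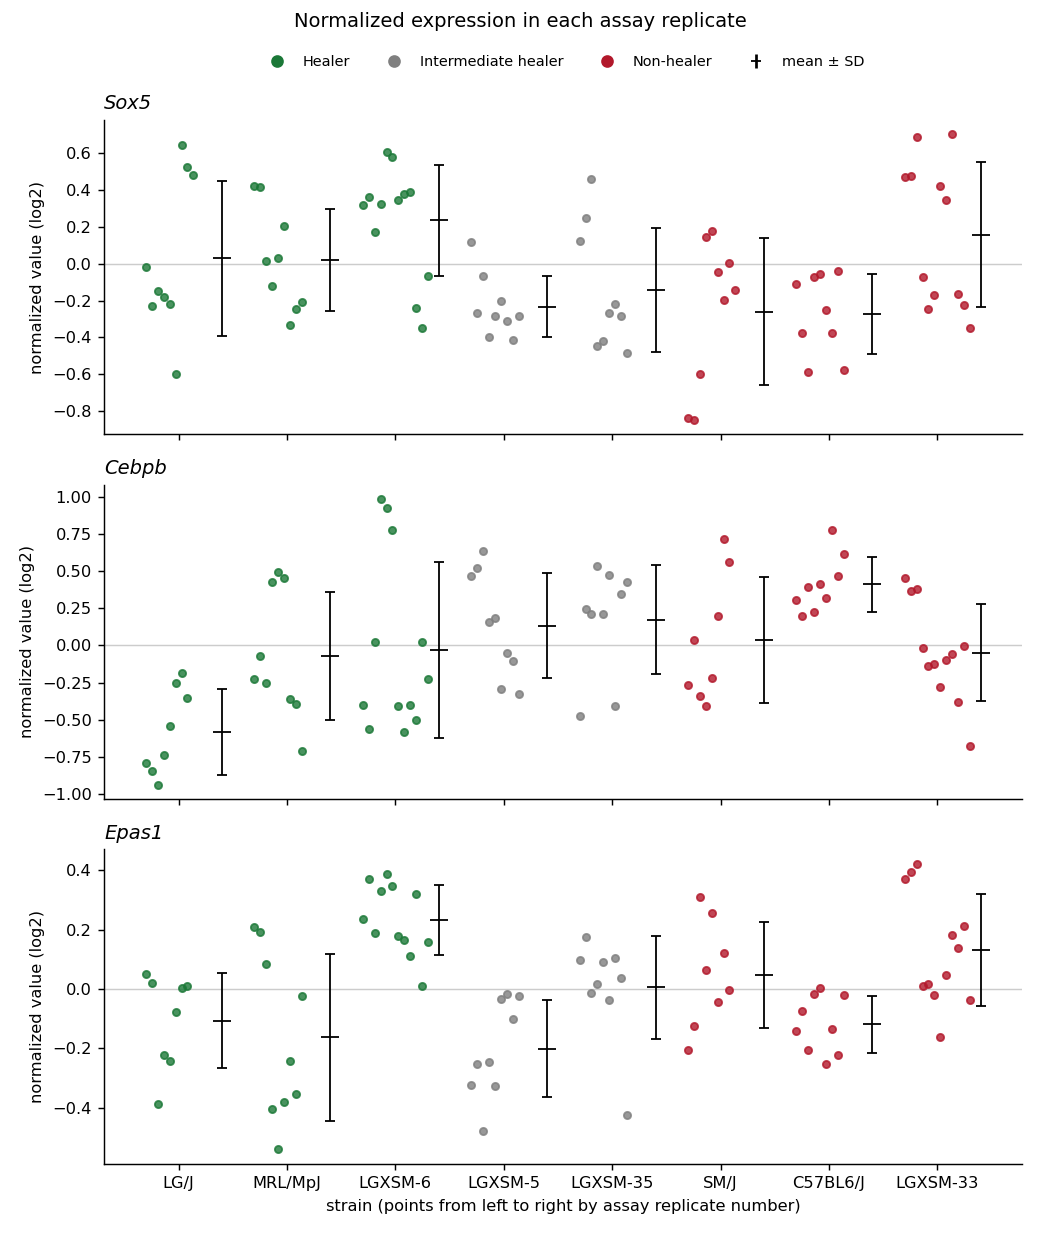
Normalized value (y axis, log2) of *Sox5*, *Cebpb* and *Epas1* in each assay replicate, by strain (x axis) and coloured by healing class, with points placed from left to right by replicate number and the mean ± SD in black. LG/J has all 8 of its *Cebpb* readings below 0, LGXSM-6 has all 12 of its *Epas1* readings above 0, and groups of neighbouring readings sit together in most strains.

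*Sox5*, the partner of *Sox9*, was highest in LGXSM-6. Its 12 readings there ran from -0.35 to 0.61 around a median of 0.33. Their mean was 0.24 ± 0.30 (SD). LGXSM-33 came next with 0.16 ± 0.39 (n = 12, range -0.35 to 0.70). The other healers, LG/J and MRL/MpJ, lay at 0.03 ± 0.42 and 0.02 ± 0.28 (n = 9 each). At the low end, C57BL6/J had readings from -0.59 to -0.04 with a median of -0.25 and a mean of -0.27 ± 0.22 (n = 9). SM/J averaged -0.26 ± 0.40, LGXSM-5 -0.23 ± 0.17 and LGXSM-35 -0.14 ± 0.34 (n = 9 each). The readings of any 2 strains overlapped, and no step between neighbours in this order passed the test. Of the 28 strain pairs, 7 were called for *Sox5*, beside 29.5% of the 1876 tests over all mRNAs and pairs. LGXSM-6 was higher than C57BL6/J by 0.51 (SE 0.14, limma adjusted P = 0.00390), and also higher than SM/J, LGXSM-5 and LGXSM-35. LGXSM-33, a non-healer, was higher than C57BL6/J, SM/J and LGXSM-5. Leaving out single replicate numbers ended the limma calls of LGXSM-33 against SM/J (1, 2 or 3), C57BL6/J (3 or 9) and LGXSM-5 (2, 3, 7, 8 or 9). It also ended that of LGXSM-6 against LGXSM-35 (any of 4 to 9). When each target was expressed as a ratio to *Gapdh* and *Hprt1*, no *Sox5* pair was called, beside 34.3% of the 1876 tests. The 4 differences against SM/J and C57BL6/J then turned, with LGXSM-6 minus C57BL6/J at -0.41 (adjusted P = 0.267). LGXSM-6 minus LGXSM-5 fell from 0.47 to 0.09, LGXSM-6 minus LGXSM-35 from 0.38 to 0.12 and LGXSM-33 minus LGXSM-5 from 0.39 to 0.32. Without normalization LGXSM-33 minus LGXSM-5 was 0.33 and not called (adjusted P = 0.0942). Tukey's test did not call the 3 LGXSM-33 pairs, against SM/J, C57BL6/J and LGXSM-5 (adjusted P = 0.0929, 0.0759 and 0.142), or LGXSM-6 against LGXSM-35 (adjusted P = 0.170).

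The spread of *Sox5* within a strain lay largely between runs. In LG/J the readings 7, 8 and 9 had values of 0.65, 0.52 and 0.48, with signals of 25, 24 and 24, and the other 6 readings lay between -0.60 and -0.02. In SM/J readings 1 to 3 lay between -0.85 and -0.60, and the other 6 between -0.20 and 0.18. In LGXSM-6 the means of 3 runs were 0.28, 0.50 and 0.37, and that of the last was -0.22. In LGXSM-33, 2 runs averaged 0.54 and 0.49, and the other two -0.16 and -0.25.

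*Cebpb*, the cytokine-responsive factor, was lowest in LG/J. All 8 readings of LG/J lay between -0.94 and -0.19, with a median of -0.64 and a mean of -0.58 ± 0.29 (SD). It was highest in C57BL6/J, where the 9 readings lay between 0.20 and 0.78, with a median of 0.39 and a mean of 0.41 ± 0.19. These strains did not overlap, and no other pair of strains was separated for *Cebpb*. Over all mRNAs, 19.4% had no overlap between C57BL6/J and LG/J, and 7.25% of all tests of a pair had none. The strains in between had means from -0.07 in MRL/MpJ to 0.17 in LGXSM-35. The step from MRL/MpJ down to LG/J, 0.51, was the only one between neighbours in the order that passed (adjusted P = 0.0356). Of the 28 pairs, 10 were called (35.7%), beside the 29.5% over all mRNAs and pairs. LG/J was lower than each of the other 7 strains, by 0.99 against C57BL6/J (SE 0.19, limma adjusted P = 3.13e-05) and by 0.62 against SM/J, the other parent of the lines (SE 0.20, adjusted P = 0.0127). With the ratio to *Gapdh* and *Hprt1*, MRL/MpJ minus LG/J was 0.40 (adjusted P = 0.121) and LGXSM-33 minus LG/J 0.08 (adjusted P = 0.773), and the latter was not called without normalization either (adjusted P = 0.125). Tukey's test, the post hoc test of the methods, called LG/J against C57BL6/J, LGXSM-5 and LGXSM-35, and did not call it against SM/J, MRL/MpJ, LGXSM-6 or LGXSM-33 (adjusted P = 0.0535, 0.159, 0.0625 and 0.0814). Leaving out single replicate numbers ended the limma calls against MRL/MpJ (any of numbers 1 to 6), LGXSM-6 (3, 4 or 5) and LGXSM-33 (1, 2 or 3). The other 3 calls had C57BL6/J higher than MRL/MpJ, LGXSM-6 and LGXSM-33. The call against MRL/MpJ was lost when number 1, 2, 3, 7, 8 or 9 was left out. That against LGXSM-6 was lost without any 1 of numbers 1 to 3 or 7 to 12 (limma adjusted P from 0.0514 to 0.131). That against LGXSM-33 was lost without number 5, 7, 8, 9, 10 or 12 (limma adjusted P from 0.0535 to 0.0975). Without normalization, C57BL6/J minus MRL/MpJ was -0.13 and C57BL6/J minus LGXSM-6 was -0.68, a call in the opposite direction (adjusted P = 0.0480). C57BL6/J minus LGXSM-33 was then 0.48 and not called (adjusted P = 0.170). With the replicate number as a block, C57BL6/J minus LGXSM-6 was 0.36 (limma adjusted P = 0.128) and C57BL6/J minus LGXSM-33 was 0.38 (limma adjusted P = 0.107), and neither was called. Tukey's test called none of these 3 (adjusted P = 0.183, 0.205 and 0.164). With runs as units, and the 8 readings of LG/J cut at the same numbers as the rest, C57BL6/J minus LG/J was 0.96 with a limma adjusted P = 0.10.

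*Cebpb* varied widely inside several strains. In LGXSM-6 the second run of 3 averaged 0.90 and the other 3 runs -0.31, -0.46 and -0.24, a range of 1.36 that exceeded the widest difference between strain means. In MRL/MpJ the runs averaged -0.18, 0.46 and -0.49. In C57BL6/J they were 0.30, 0.32 and 0.62. Before normalization LG/J was not the lowest strain. Its geometric mean signal of *Cebpb* was 88.7, SM/J had 67.1, and LGXSM-6 had 290.0. In C57BL6/J it was 181. Of the reference genes in that panel, C57BL6/J had less *Gapdh* signal than LG/J (6385 against 10098), close to the same *Hprt1* signal (95.1 against 104) and more *Actb* signal (5791 against 5066), as geometric means. SM/J minus LG/J turned from 0.62 to -0.40 (adjusted P = 0.321) without normalization.

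*Epas1*, which encodes HIF-2 alpha, was highest in LGXSM-6. All 12 readings of LGXSM-6 were above 0, from 0.01 to 0.39 with a median of 0.21 and a mean of 0.23 ± 0.12 (SD). LGXSM-33 followed with 0.13 ± 0.19 (n = 12). The lowest strain was LGXSM-5, with 9 readings from -0.48 to -0.02 and a mean of -0.20 ± 0.16. MRL/MpJ averaged -0.16 ± 0.28 (n = 9), C57BL6/J -0.12 ± 0.10 (n = 9) and LG/J -0.11 ± 0.16 (n = 8). SM/J and LGXSM-35 lay between, at 0.05 ± 0.18 (n = 8) and 0.01 ± 0.17 (n = 9). The readings of LGXSM-6 did not overlap with those of LGXSM-5 or of C57BL6/J. Of all 67 mRNAs, 17.9% had no overlap in the first of these pairs and 16.4% in the second. Of the 28 pairs, 10 were called (35.7%), beside the same 29.5% over all mRNAs and pairs, and LGXSM-6 was the higher strain in 5 of them. It exceeded LGXSM-5 by 0.43 (SE 0.08, limma adjusted P = 1.69e-05), MRL/MpJ by 0.40, C57BL6/J by 0.35, LG/J by 0.34 and LGXSM-35 by 0.23. With the ratio to *Gapdh* and *Hprt1*, the last pair of differences were 0.18 against LG/J (adjusted P = 0.117) and 0.10 against LGXSM-35 (adjusted P = 0.402), and neither was called. The call against LGXSM-35 was also lost without reading 9 of that strain, where the difference was 0.17 (limma adjusted P = 0.0925), and with recomputed residuals it was 0.19 (limma adjusted P = 0.0571). LGXSM-33 was higher than LGXSM-5, MRL/MpJ, C57BL6/J and LG/J, by 0.24 to 0.33. Its call against LG/J was lost without replicate number 3 or 4 (limma adjusted P = 0.134 and 0.0506). SM/J was higher than LGXSM-5 by 0.25, but this call was lost without replicate number 3, 4 or 5 (limma adjusted P = 0.157, 0.0614 and 0.0998). In SM/J these numbers were the dimmest readings, with signals of 111, 90 and 89. Without normalization the difference between SM/J and LGXSM-5 was -1.02, a call in the opposite direction (limma adjusted P = 0.00570). Without normalization, LGXSM-33 was not called against MRL/MpJ or LGXSM-5, nor LGXSM-6 against LGXSM-35. Tukey's test did not call LGXSM-33 against LG/J, SM/J against LGXSM-5 or LGXSM-6 against LGXSM-35 (adjusted P = 0.0771, 0.0922 and 0.0815). No step between neighbours in the order of strains passed the test.

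The *Epas1* runs of a strain spanned a narrower range than the *Cebpb* runs in each of the 6 strains with 9 or 12 readings of that panel. The 4 runs of LGXSM-6 averaged 0.27, 0.36, 0.15 and 0.16, and the 3 of C57BL6/J -0.14, -0.09 and -0.13. MRL/MpJ was wider, with runs at 0.16, -0.44 and -0.21. With runs as units, LGXSM-6 minus LGXSM-5 was 0.43, with a limma adjusted P = 0.0703 with LG/J and SM/J in the fit and 0.122 without. Reading 9 of LGXSM-35 lay far below the others of its strain, at -0.42 against -0.04 to 0.18. Recomputed from its deposited signal, the same reading gave -0.05.

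**Figure D3:**
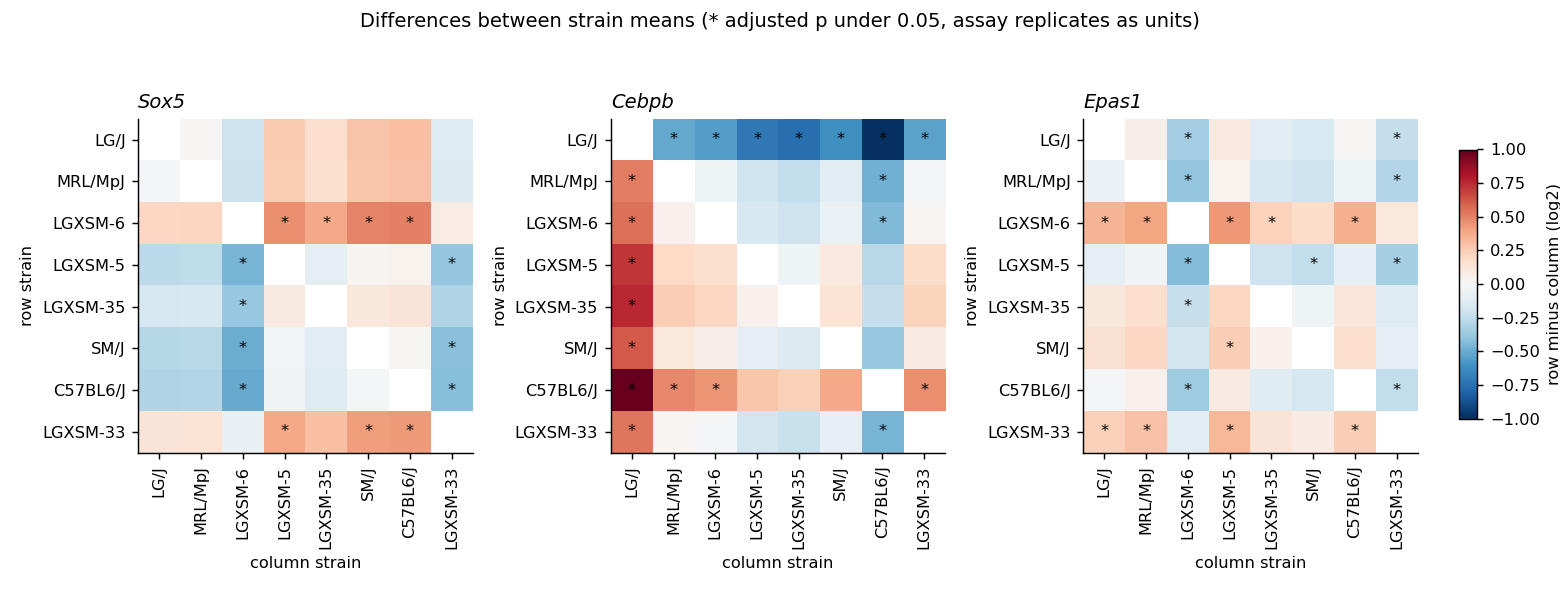
Difference between strain means of the normalized value (row strain minus column strain, log2, colour) for each factor, with strains ordered by healing class and an asterisk where the adjusted P was under 0.05 with assay replicates as units. The LG/J row of *Cebpb* is lower than every other strain, by 0.99 against C57BL6/J, and the LGXSM-6 and LGXSM-33 rows hold the higher values of *Sox5* and *Epas1*.

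The recombinant lines were set beside their parents to see whether they stayed within the parental range. LGXSM-6 and LGXSM-33 had strain means of *Sox5* above both parents, and the other two lines lay between them. For *Cebpb*, LGXSM-5 and LGXSM-35 lay above both parents and none lay below. For *Epas1*, LGXSM-6 and LGXSM-33 lay above both parents, LGXSM-5 below both, and LGXSM-35 between. In 57 of 67 mRNAs (85.1%), 2 or more of the 4 lines fell outside the parental range. Of the differences that put a line outside it, none was called against both parents for any factor.

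The comparison of healing classes asks whether a factor differs between strains that regenerate cartilage and strains that do not. No difference was called for any factor on strain means. *Cebpb* averaged -0.23 ± 0.31 (SD) over the 3 healers and 0.13 ± 0.25 over the 3 non-healers, a difference of -0.36 with a 95% interval of -0.78 to 0.06 (limma adjusted P = 0.605). *Sox5* averaged 0.09 ± 0.12 in healers and -0.12 ± 0.24 in non-healers, a difference of 0.22 with an interval of -0.11 to 0.55 (adjusted P = 0.637). *Epas1* averaged -0.01 ± 0.21 and 0.02 ± 0.13, a difference of -0.03 with an interval of -0.35 to 0.29 (adjusted P = 0.946). In two-sided exact permutation tests of 3 against 3 strains, P was 0.2 for *Cebpb*, 0.3 for *Sox5* and 0.9 for *Epas1*, where the smallest P this design allows is 0.1. The strain means of the classes overlapped for each factor, and 13.4% of all mRNAs had none. By limma 0 of 67 mRNAs were called (0%), and 4 (5.97%) had an unadjusted P under 0.05. The intermediate healers averaged -0.19 for *Sox5*, 0.15 for *Cebpb* and -0.10 for *Epas1*. Depending on normalization, the *Sox5* difference turned to -0.26 when targets were ratios to the reference genes, and without normalization the *Cebpb* difference turned to 0.57 and the *Epas1* difference to 0.78, none of them called. The *Sox5* difference was 0.15 without C57BL6/J and 0.36 without LGXSM-33. The *Cebpb* difference was -0.18 without LG/J and -0.22 without C57BL6/J, and the *Epas1* difference turned to between 0.02 and 0.04 without LG/J, MRL/MpJ or LGXSM-33.

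Set against each other by pair, the healer and the non-healer differed for *Cebpb* in 2 of 3 pairs. LG/J was lower than SM/J by 0.62, in a pair where 28.4% of all mRNAs were called. MRL/MpJ was lower than C57BL6/J, with a difference of -0.48 (SE 0.19, adjusted P = 0.0407), where 17.9% were called. Neither was called by Tukey's test (adjusted P = 0.0535 and 0.183), and without normalization both turned. The MRL/MpJ difference was also not called when any of the replicate numbers 1, 2, 3, 7, 8 or 9 was left out (limma adjusted P from 0.0520 to 0.149). LGXSM-6 minus LGXSM-33 was 0.02 (SE 0.16, adjusted P = 0.945), where 22.4% were called. The gap between the first of these differences and that of the lines was -0.64 (SE 0.25), which did not pass over the 201 tests of this kind (adjusted P = 0.0899), of which 14.4% did. The *Cebpb* difference was thus not shown to differ between pairs. With the ratio to the reference genes, 2 of the 3 gaps were called for *Cebpb*, where 20.4% of the 201 tests were. For *Sox5* the healer minus non-healer values were 0.29 in both LG/J minus SM/J and MRL/MpJ minus C57BL6/J, and 0.08 in the lines, with none called (adjusted P = 0.148, 0.144 and 0.692). For *Epas1* they were -0.15, -0.04 and 0.10, also uncalled. No difference between pairs was called for *Sox5* or *Epas1*.

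Across the 8 strain means the factors were compared with each other. *Sox5* and *Epas1* had Pearson r = 0.60 (exact permutation P = 0.118, adjusted P = 0.593 over 2211 pairs of mRNAs) and Spearman rho = 0.55 (exact P = 0.171). Without LGXSM-6 and LGXSM-33, the 2 strains farthest from the median of *Sox5*, r was -0.26 over 6 strains. *Sox5* and *Cebpb* had r = -0.53 (exact P = 0.174, adjusted P = 0.667) and rho = -0.69 (exact P = 0.0694), and r was -0.78 without the same lines. *Cebpb* and *Epas1* had r = -0.04 (exact P = 0.928, adjusted P = 0.984) and rho = -0.14 (exact P = 0.752), and r = -0.32 without C57BL6/J and LG/J. No pair of mRNAs in the data passed after adjustment (0 of 2211, 0%), and 208 (9.41%) had an unadjusted exact P under 0.05. Within strains, where both were read in the same wells, the deviations of *Cebpb* and *Epas1* from their strain means had r = -0.06 over 76 readings. Without normalization *Sox5* and *Epas1* had r = 0.95 over the strains, which passed (exact permutation, adjusted P = 0.00700), *Sox5* and *Cebpb* 0.66 and *Cebpb* and *Epas1* 0.72. In that setting the signal of each factor still followed the reference genes. The share of all mRNA pairs that passed there is not given. With the ratio to the reference genes *Sox5* and *Cebpb* had r = 0.07.

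**Figure D4:**
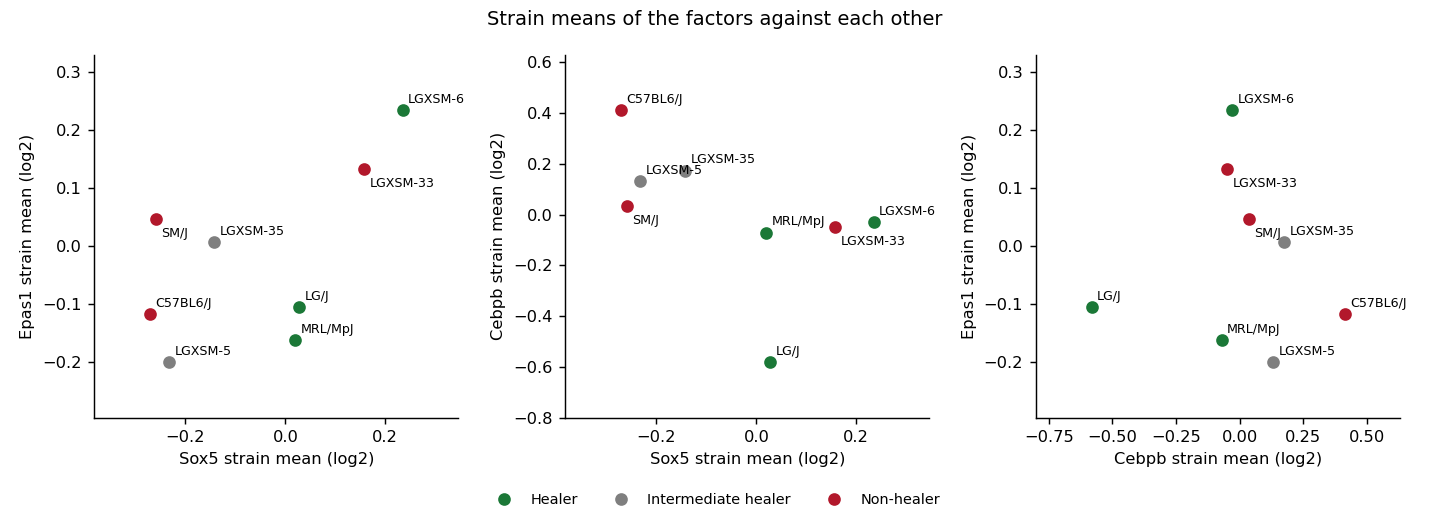
Strain means of the normalized values (log2) of the factors plotted against each other, with 1 point per strain coloured by healing class. LGXSM-6 and LGXSM-33 stand together at the upper right for *Sox5* and *Epas1* (r = 0.60 over 8 strains), and LG/J stands alone at the low end of *Cebpb*.

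Over 8 strain means *Sox5* was most like *Smad4* (r = 0.88), the shared mediator of TGF-beta and BMP signals, *Mmp3* (0.88), which encodes stromelysin, and *Acan* (0.87), which encodes the aggrecan core protein. It was least like *Vegfa* (-0.69), the angiogenic growth factor. *Epas1* was most like *Tgfb1* (0.83), a growth factor of cartilage and bone, *Tfap2a* (0.82), which encodes the factor AP-2 alpha, and *Bmp6* (0.79), and least like *Ulk1* (-0.53), a kinase that starts autophagy. *Smad1*, which encodes a mediator of BMP signals, ranked next for both *Sox5* (0.87) and *Epas1* (0.77). For *Cebpb* no mRNA reached such values. *Bcl3*, a cofactor of NF-kappa-B, was the closest by Pearson r (0.57) but had a rho of 0, and *Ccl3*, a chemokine, had r = 0.51 and rho = 0.81. *Adipoq*, which encodes adiponectin, had r = 0.50. *Cebpb* was least like *Pcna*, the replication clamp (r = -0.94, rho = -0.76). These are descriptions over strains that share the normalization of their panel.

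Inside strains, only mRNAs of the same panel were set beside a factor, since these share its wells. After removal of the strain means, *Cebpb* moved most closely with *Mia1* (r = 0.63), *Sox9* (0.55) and *Col2a1* (0.44) over 76 readings of the first panel, all genes of cartilage. *Epas1* moved with *Adamts5* (0.70), an aggrecanase, *Tgfbr1* (0.68) and the collagen receptor *Ddr2* (0.68). *Sox5* moved with *Smad1* (0.65), *Cdkn1a* (0.58) and *Axin2* (0.53) over 78 readings of the second panel. *Smad1* was thus among the most like *Sox5* both inside strains and over strain means. Readings of a well share its RNA, its reference signals and its run.

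Genes of the same biology were described beside each factor in the pair of strains where the factor differed most. These pairs were chosen for that difference. They share strains, LGXSM-6 in those of *Sox5* and *Epas1* and C57BL6/J in those of *Sox5* and *Cebpb*. Over all strains, the strain effect was called for 6 of 6 mRNAs of cartilage matrix and the Sox partner, 6 of 6 of hypertrophy and growth plate, 6 of 6 proteases and cytokine, and 3 of 3 inflammatory factors, against 82.1% of all mRNAs. With runs as units these counts were 1, 2, 2 and 0, against 19.4%.

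In LGXSM-6 against C57BL6/J, where *Sox5* was higher by 0.51, 3 of the 6 mRNAs of the cartilage list were higher and none lower, with a median difference of 0.58. Over all 67 mRNAs, 27 were higher and 5 lower (47.8% called) with a median of 0.19. *Col2a1*, the type II collagen gene that *Sox5* is known to act on, was higher by 1.41 (SE 0.26, limma adjusted P = 1.15e-05). *Mia1* was higher by 1.04 and *Acan* by 0.81 (adjusted P = 1.87e-08 and 0.0165). *Sox9* had a difference of 0.35 that did not pass (adjusted P = 0.222). Among the proteases, *Mmp3* was higher by 1.72, *Mmp13* by 1.24 and *Adamts5* by 0.34, and *Mmp9*, known from osteoclasts and growth plate, was lower (-0.92). Of the growth plate list, 2 of 6 were higher, *Runx2* and *Fgf18* by 0.40 and 0.57, and the list median was 0.04. None of the 3 inflammatory factors passed. Of the bone markers, *Bglap1* was higher by 0.60, and *Col1a1* had a difference of 0.02 that did not pass. Of the fat markers, *Adipoq* was higher by 0.47, and the differences of *Lep* (-0.40) and *Retn* (-0.07) did not pass. The myeloid chemokine *Ccl3* had a difference of -0.29 that did not pass. The part of tissue makeup in the *Sox5* difference was not tested.

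In C57BL6/J against LG/J, where *Cebpb* was higher by 0.99, 2 of the 6 mRNAs of the cartilage list were lower and none higher, with a median of -0.43. Over all mRNAs, 7 were higher and 13 lower (29.9% called) with a median of -0.04. *Col2a1* differed by -1.23 (adjusted P = 0.000448) and *Mia1* by -1.08 (adjusted P = 1.04e-07). *Mmp13*, a known target of C/EBP beta, was lower where *Cebpb* was higher, with a difference of -1.18 (SE 0.18, adjusted P = 4.65e-07). *Il6*, another known target, differed by -0.35, which did not pass (adjusted P = 0.0817). *Mmp9* was higher by 0.50 (adjusted P = 0.000381). Of the inflammatory factors, *Bcl3* was higher by 0.80 and *Nfkb1* by 0.23, and *Stat3* had a difference of 0.09 that did not pass. Of the 6 mRNAs of hypertrophy and growth plate 2 were lower, *Runx2* and *Ihh*, with differences of -0.58 and -0.45. *Fgf18* (0.52), *Pthlh* (0.12), *Vegfa* (0.11) and *Col10a1* (-0.12) did not pass, and the list median was 0.00. Of the markers of other tissues, *Adipoq* was higher by 0.53, and *Lep*, *Retn*, *Bglap1*, *Col1a1* and the myeloid chemokine *Ccl3* did not pass. The mean normalized value of the 4 cartilage markers was 0.50 in LG/J and -0.29 in C57BL6/J, and that of the 3 fat markers -0.41 and -0.04. Their part in the *Cebpb* difference was not tested.

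In LGXSM-6 against LGXSM-5, where *Epas1* was higher by 0.43, 5 of 6 mRNAs of the cartilage list were higher and none lower, with a median of 1.07. Over all mRNAs, 26 were higher and 3 lower (43.3% called), with a median of 0.15. The growth plate list held *Col10a1*, the collagen of hypertrophic chondrocytes, which was higher by 1.42 (SE 0.37, adjusted P = 0.00172), with *Ihh* (0.78), *Fgf18* (0.70) and *Runx2* (0.38) also higher. *Vegfa*, a known target of HIF factors, was lower, with a difference of -0.23 (adjusted P = 0.0486). *Mmp13*, *Mmp9* and *Adamts5* were higher by 0.78, 0.67 and 0.50. *Mmp3* had a difference of 0.96 that did not pass (limma adjusted P = 0.0521), and those of *Adamts4* and *Il6* were 0.01 and 0.08. Of the inflammatory factors, *Nfkb1* was higher by 0.21 (limma adjusted P = 0.0180), and the differences of *Bcl3* (-0.10) and *Stat3* (0.16) did not pass. Of the markers, all 4 for cartilage and *Bglap1* of the 2 for bone were higher, and none of the 3 for fat nor *Ccl3* passed. The mean normalized value of the cartilage markers was 0.61 in LGXSM-6 and -0.60 in LGXSM-5, the widest gap among the 8 strains. Their part in the *Epas1* difference was not tested.

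**Figure D5:**
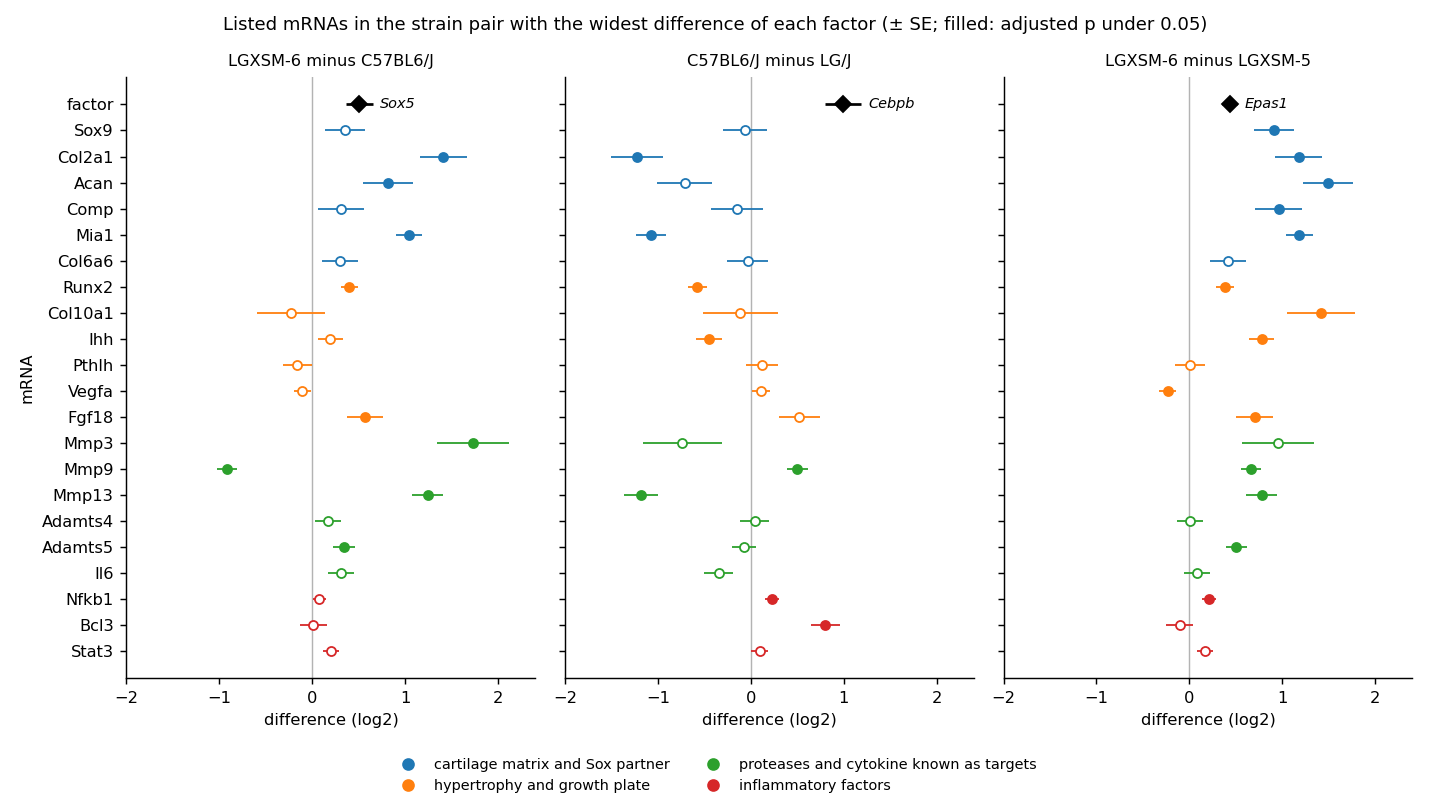
Difference (log2, x axis) of the listed mRNAs (y axis, coloured by list) and of the factor itself (black diamond) in the pair of strains with the widest difference of each factor, with bars for ± SE and filled points where the adjusted P was under 0.05. *Col2a1*, *Mia1* and *Mmp13* lie to the right where *Sox5* or *Epas1* was higher and to the left where *Cebpb* was higher. *Mmp9* lies to the left where *Sox5* was higher and to the right where *Cebpb* or *Epas1* was higher. *Vegfa* lies to the left in LGXSM-6 minus LGXSM-5. LGXSM-6 is in the pairs of *Sox5* and *Epas1*, and C57BL6/J is in those of *Sox5* and *Cebpb*.

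Between healing classes the medians of the lists were 0.30 for cartilage matrix and the Sox partner, 0.00 for hypertrophy and growth plate, 0.17 for the proteases and cytokine, and -0.09 for the inflammatory factors, beside 0.03 over all 67 mRNAs. By limma none of their mRNAs was called, as with all mRNAs. *Runx2* had a difference of 0.31 and *Ihh* of 0.36, both with adjusted P = 0.593. *Mmp3* had the widest difference among the listed mRNAs, 0.75 (SE 0.46, adjusted P = 0.637).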

How the data were processed

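The authors measured 67 target mRNAs by QuantiGene Plex assay in 2 panels of 33 and 34, deposited the signals as log10 values, and deposited as normalized log10 values the residuals of each target, obtained by regressing it on its panel's reference genes (*Gapdh* and *Hprt1*, with *Actb* in the first). Versions of their reader software are not given in the sources used here. Deposited files of strain averages and of fold changes, which hold the authors' own comparisons, were not used. No value column was left without a strain (0 columns). Here log10 values were turned to log2. Strains and healing classes were taken from the labels, and each strain is 1 sample with 8 to 12 assay replicates, the number of which limits the precision.

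Strains were compared in limma 3.58.1 (R 4.3.3) with 1 fit per panel and Benjamini-Hochberg adjustment over 67 mRNAs, over 1876 tests of strain pairs and over 201 tests of differences between pairs, at 0.05. Healing classes were compared in limma on 8 strain means. Correlations had exact permutation P values over 40320 orders of the strains (Python 3.11.15, numpy 2.4.6, scipy 1.17.1). H2 came from one-way variance components with readings as units. The steps were tested on simulated data. Numbers of assay replicates did not pair readings across strains, with a median correlation of same-numbered deviations of 0.07 in the first panel and 0.00 in the second.

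The factors and gene lists were chosen with earlier results of these data known. Named were the 3 factors, 4 lists (cartilage matrix and Sox partner, hypertrophy and growth plate, proteases and cytokine known as targets of *Cebpb* or *Epas1*, inflammatory factors), tissue markers, and for each factor the 3 mRNAs with the highest and the 1 with the lowest r over strain means. *Tgfbr1*, *Ddr2*, *Smad1*, *Cdkn1a* and *Axin2* were named after their values were seen. Alternatives were other normalizations, a filter on signal, a fit with the replicate number as a block, tests without moderation, Tukey's test and leaving out readings or strains. Runs of 3 readings as units were added after the data were seen. All 70 symbols of the panels matched RefSeq names of GRCm38.p6, 66 as symbols and 4 as synonyms. Probe sequences and positions were not used here.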

Additional observations from a re-analysis of the deposited data

Results flagged for a closer look

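In 18 groups of 8 or 9 readings of a factor in a strain, the gap of the highest and of the lowest reading to its neighbour was set against the range of the group, a test that chance passes in about 1 group of 20. It singled out 1 reading, the lowest of *Epas1* in LGXSM-35 (reading 9), at -0.42 against -0.04 to 0.18 for the other 8, with a gap of 0.642 of the range. Its signal was 541.5. The residual recomputed from that signal and its reference genes was -0.05, and in the same reading *Cebpb* was deposited at 0.43 and recomputed at -0.08. The deposited and recomputed values of this reading differed by more than 0.1 on the log2 scale for 24 of the 33 mRNAs of the panel. Without this reading, LGXSM-6 minus LGXSM-35 for *Epas1* was 0.17 instead of 0.23 and was no longer called. The cause was not tested.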

How the results depend on the processing

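Treating runs of 3 readings as units, chosen after the data were seen, ended every call for the factors. With or without LG/J and SM/J in the first panel, 13 or 10 of 67 mRNAs had a strain effect call, 70 of 1876 or 64 of 1447 strain pairs were called, with 0 for each factor, and 3 or 2 differences between healer pairs. Adjusted P values for the strain effect were then 0.411 or 0.452 for *Sox5*, 0.390 or 0.741 for *Cebpb* and 0.119 or 0.156 for *Epas1*. Since the methods describe repeated readings of a few mice, readings are not independent units, and the runs, inferred from the numbering, are not labelled as mice in the files. With the ratio to the reference genes, the strain effect of *Sox5* had a limma adjusted P = 0.154 and H2 of 5.26%. It had 0 called pairs, beside 34.3% of all 1876 tests. Its healer difference turned to -0.26, and LGXSM-6 and LGXSM-33 turned to -0.59 and -0.36 against SM/J and -0.41 and -0.18 against C57BL6/J. There the correlation of *Sox5* with *Cebpb* was 0.0746, and 2 differences between healer pairs were called for *Cebpb*. Without normalization, H2 of *Sox5* was 53.7% with 15 of 28 pairs called. In all, 862 of 1876 pair tests (45.9%) and 11 of 201 differences between healer pairs (5.47%) were called. The healer differences of *Cebpb* and *Epas1* turned to 0.57 and 0.78. Also turned were *Cebpb* in SM/J minus LG/J (-0.40), C57BL6/J minus MRL/MpJ (-0.13) and C57BL6/J minus LGXSM-6 (-0.68), and *Epas1* in SM/J minus LGXSM-5 (-1.02), the last 2 called in the opposite direction. The correlations became 0.95 for *Sox5* with *Epas1* (exact permutation, adjusted P = 0.00700, share of all mRNA pairs passing not given), 0.66 for *Sox5* with *Cebpb* and 0.72 for *Cebpb* with *Epas1*. The cause was not tested.

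Leaving out 1 replicate number gave 4 to 7 called pairs for *Sox5*, with 4 without number 3 or number 9, 5 to 9 for *Cebpb*, with 5 without number 3 and 6 without number 1 or number 2, and 7 to 12 for *Epas1*, beside 25.7% to 29.2% of all tests. The strain effect of each factor stayed called, with adjusted P up to 0.0137. Leaving out 1 strain gave healer differences from 0.15 to 0.36 for *Sox5*, -0.46 to -0.18 for *Cebpb* and -0.15 to 0.04 for *Epas1*, which turned without LG/J (0.02), MRL/MpJ (0.0437) or LGXSM-33 (0.02). Correlations ranged from 0.32 to 0.75 for *Sox5* with *Epas1*, -0.70 to -0.38 for *Sox5* with *Cebpb* and -0.42 to 0.14 for *Cebpb* with *Epas1*, which turned without C57BL6/J (0.14) or LGXSM-5 (0.05). Tukey's test called 3, 3 and 7 of 28 pairs for *Sox5*, *Cebpb* and *Epas1*, beside 20.3% of all 1876 tests. With the replicate number as a block, 54 mRNAs had a strain effect. Of 28 pairs each, 9, 8 and 10 were called for *Sox5*, *Cebpb* and *Epas1*, beside 559 of all 1876 tests (29.8%). Of the 27 called pairs of the factors, 2 were lost, *Cebpb* in C57BL6/J minus LGXSM-6 (limma adjusted P = 0.128) and minus LGXSM-33 (limma adjusted P = 0.107). No healing class call was gained by limma under any alternative. The filter on low signal kept 50 mRNAs and left out *Sox5*.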
